A study of Mus musculus with 31 samples.

Results

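The genes described here encode the potassium channels of the mouse and the subunits that attach to them. They were chosen by name and by detection: protein-coding genes whose GENCODE M21 symbol starts with Kcn and a further letter, with 10 or more counts in at least 4 of the 31 libraries. Of 94 genes so named among 55536 gene identifiers, 78 were kept, and the remaining 16 are not counted among the potassium channel genes of any comparison. Because the choice used the counts themselves, the detection of these genes is a description and no result. At the edge of the rule, Kcnj6 reached 10 counts in 4 libraries and Kcna3 and Kcna7 in 5, whereas Kcne4, Kcng3 and Kcnj14 did so in 2 and were left out.

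The libraries hold RNA recovered with ribosomes by translating ribosome affinity purification, in which a tagged ribosomal protein is pulled down together with the RNA being translated. All mice carried L10a-eGFP-fl/fl, a floxed allele of ribosomal protein L10a fused to a green fluorescent protein. Cre-positive mice (Nav1.8-Cre;L10a-eGFP-fl/fl) also carried a Cre recombinase driven from Nav1.8, the sodium channel Scn10a, which most nociceptors and some other sensory neurons express, so that only these neurons should make the tag. Cre-negative mice of the floxed genotype gave control libraries, which hold whatever RNA the pulldown recovers without a tag. The tissue for central axons was lumbar dorsal root and spinal cord together, that for peripheral axons was sciatic nerve, and ganglia of the lumbar dorsal roots gave the somas. Batch 1 held central axons (4 Cre, 4 control) and somas (4 Cre, 4 control), and batch 2 held peripheral axons (4 Cre, 3 control) and other somas (4 Cre, 4 control). The labels call the libraries biological replicates and give no age or treatment. Spinal cord and nerve tissue also hold neurons, glia and connective tissue that lack the tag, and the RNA yield was below 100 pg for axons and 1 ng for somas per the labels' protocols.

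Potassium channels let potassium leave the cell and so hold or restore the resting potential. Voltage-gated channels (Kcna, Kcnb, Kcnc, Kcnd, Kcnh, Kcnq) open on depolarisation. Silent subunits (Kcnf, Kcng, Kcns, Kcnv) conduct only when joined to Kcnb partners, and the Kcnab, Kcne and Kcnip families are auxiliary subunits. Inward rectifiers (Kcnj) and two-pore channels (Kcnk) carry resting and glial potassium currents, and calcium- or sodium-activated channels (Kcnn and the Slo family, Kcnma, Kcnmb, Kcnt and Kcnu) follow firing. In sensory neurons the Kcnd channels with their Kcnip subunits give the fast transient current of nociceptors, Kcna channels cluster beside the nodes of myelinated axons, and Kcnk18 and Kcnk2 set resting excitability.

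Upstream sequences are shown for 4 genes on which the axonal results turn: Kcnip1 and Kcnd2, the pair with the smallest adjusted p in central axons against soma, Kcnj10, with the smallest in peripheral axons, and Kcnip2, which fell there. Each is the 250 bases before the outermost RefSeq start (build GRCm38.p6), 5′ to 3′ on the strand of the gene, with motif matches in capitals. The positions are chr11:33993194-33993443 (minus strand) for Kcnip1, chr6:21215096-21215345 (plus) for Kcnd2, chr19:45816064-45816313 (minus) for Kcnip2 and chr1:172340960-172341209 (plus) for Kcnj10.
Kcnip1: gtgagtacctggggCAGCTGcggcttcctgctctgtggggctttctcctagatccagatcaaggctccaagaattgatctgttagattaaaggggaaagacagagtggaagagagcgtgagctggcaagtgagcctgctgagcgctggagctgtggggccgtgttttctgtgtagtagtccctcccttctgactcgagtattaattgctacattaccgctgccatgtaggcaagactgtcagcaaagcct
Kcnd2: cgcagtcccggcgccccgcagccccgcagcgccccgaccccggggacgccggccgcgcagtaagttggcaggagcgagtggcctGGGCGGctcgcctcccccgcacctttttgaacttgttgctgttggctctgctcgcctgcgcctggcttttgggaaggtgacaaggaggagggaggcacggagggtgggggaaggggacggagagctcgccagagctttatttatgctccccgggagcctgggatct
Kcnip2: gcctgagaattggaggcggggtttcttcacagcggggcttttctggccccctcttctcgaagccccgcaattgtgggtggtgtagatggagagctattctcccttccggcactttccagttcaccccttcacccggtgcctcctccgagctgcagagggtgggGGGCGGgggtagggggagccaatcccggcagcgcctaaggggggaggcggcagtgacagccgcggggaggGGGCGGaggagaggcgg
Kcnj10: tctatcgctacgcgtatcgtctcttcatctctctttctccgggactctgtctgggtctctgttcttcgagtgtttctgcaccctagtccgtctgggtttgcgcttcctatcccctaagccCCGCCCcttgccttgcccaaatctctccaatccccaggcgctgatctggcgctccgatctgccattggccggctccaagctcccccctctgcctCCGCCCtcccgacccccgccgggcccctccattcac
The motifs searched on both strands were the GC box GGGCGG, the E-box CAGCTG, the TATA box TATAAA and the cyclic-AMP response element TGACGTCA, whose letters do not overlap one another here. GC boxes numbered 2 in the Kcnip2 and Kcnj10 windows, 1 in that of Kcnd2 and 0 in that of Kcnip1, which held 1 E-box instead. None of the 4 windows held the TATA box or the response element. Among all 32851 RefSeq windows of this length, 32.7% held the GC box, 13% the E-box, 12.4% the TATA box and 1.55% the response element. RefSeq windows were found for 57 of the 78 genes, with 81 starts in all, and of these 45.7%, 23.5%, 3.7% and 0% held the 4 motifs in that order. GC content was 68.8% for Kcnd2, 66.8% for Kcnip2, 62% for Kcnj10 and 52.8% for Kcnip1.

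Library totals ran from 3.601 to 19.64 M counts (M), so that 3 counts, taken as the smallest detectable amount, equal 0.153 to 0.833 CPM (counts per 1 M of the library total). These floors cover counting error only. Scn10a, the gene of the Cre driver, stood at 45.1 to 421 CPM in central axon Cre libraries and 0 to 29.9 CPM in their controls, but overlapped between Cre and control in peripheral axons (42.1 to 304 against 0 to 127 CPM) and in both sets of somas. Of the nociceptor marker list, 9 of 9 genes were found, with a summed level of 1778 to 8669 CPM in central axon Cre libraries and 458 to 1349 CPM in controls. Markers of untagged cells were present in both kinds of axon library, and their values stand beside the results. Control replicate 3 of the batch 1 somas stood apart: its composition factor was 0.0547, against 1.30 to 1.78 in the other libraries of that comparison. Among 45 pairs of replicates none were copies, since chi-square divided by its degrees of freedom was 22.5 or more.

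On a scale comparable between genes (counts per kilobase of exon, scaled to a fixed sum per library, called the length-scaled level), the Cre somas were led by Kcnab2, the auxiliary subunit that Kcna channels carry. Its length-scaled level was 160 ± 17.6 (mean ± SD, n = 4) in batch 1 and 149 ± 60.3 (n = 4) in batch 2. In batch 1 the next were Kcna6, a voltage-gated pore, at 75.5 ± 30.0, Kcnk12, a two-pore subunit, at 69.2 ± 41.3, Kcnip2, an auxiliary subunit of Kcnd channels, at 68.9 ± 22.1, and Kcnd1, a pore of the transient current, at 54.2 ± 13.01. Batch 2 somas had Kcnip2 at 81.5 ± 16.4, Kcnk18 at 59.6 ± 22.7, Kcna6 at 37.1 ± 10.7 and Kcnd1 at 36.2 ± 8.86. Only the first place of Kcnab2 in batch 1 was larger than the spread: in batch 2 its interval of 1 SD overlapped that of Kcnip2, and so did those of the other neighbours named in both orders. Kcnip4 followed at 32.1 ± 13.7, Kcnk18 at 30.7 ± 14.9 and Kcnt1, a sodium-activated channel, at 25.4 ± 4.64 in batch 1.

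Several other subfamilies were lower in the Cre somas, and the highest members of 6 are given here for batch 1. Kcnc4, a voltage-gated pore, had a length-scaled level of 24.6 ± 5.36. Kcnh2, of the ether-a-go-go family, had 22.9 ± 13.2, and Kcnj11, the pore of ATP-sensitive channels, 20.97 ± 5.87. Among silent subunits Kcng2 led at 7.75 ± 5.30, Kcne1l led the Kcne family at 3.26 ± 2.36, and Kcnrg was at 0.277 ± 0.470. In batch 2 the leading gene was another one for 4 subfamilies. There Kcnk18 led the two-pore family, Kcnmb4 the Slo family, Kcnh6 the ether-a-go-go family and Kcnv1 the silent subunits.

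Axon libraries had a different order. Central axon Cre libraries were led by Kcnab2 (121 ± 37.2), Kcnk12 (74.6 ± 39.9), Kcnip2 (71.3 ± 21.2), Kcne1l (53.7 ± 42.8), Kcnc4 (52.8 ± 11.9) and Kcnip1 (49.4 ± 14.5), all as length-scaled levels with n = 4, and the intervals of 1 SD of neighbours overlapped. Peripheral axon Cre libraries were led by Kcna1 (91.3 ± 64.6), Kcnab2 (58.9 ± 49.8), Kcna2 (57.7 ± 39.4), Kcnj10 (57.2 ± 47.6) and Kcnmb4 (54.9 ± 19.4), whose intervals of 1 SD all overlapped. Scaled by the longest transcript instead of all exons, Kcnmb4 there was at 88.8. All 78 genes summed to a length-scaled level of 1042 to 1451 in central axon Cre libraries, 414 to 957 in peripheral axon Cre libraries, 667 to 1033 in batch 1 Cre somas and 566 to 857 in batch 2 Cre somas. By count, 66 to 69 of them had 10 or more counts in each central axon Cre library, 32 to 67 in peripheral axon Cre libraries, and 52 to 62 and 65 to 68 in Cre somas. Depth ran from 4.10 to 15.1 M counts in the peripheral axon Cre libraries, and its part in the detection there was not tested.

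**Figure D1:**
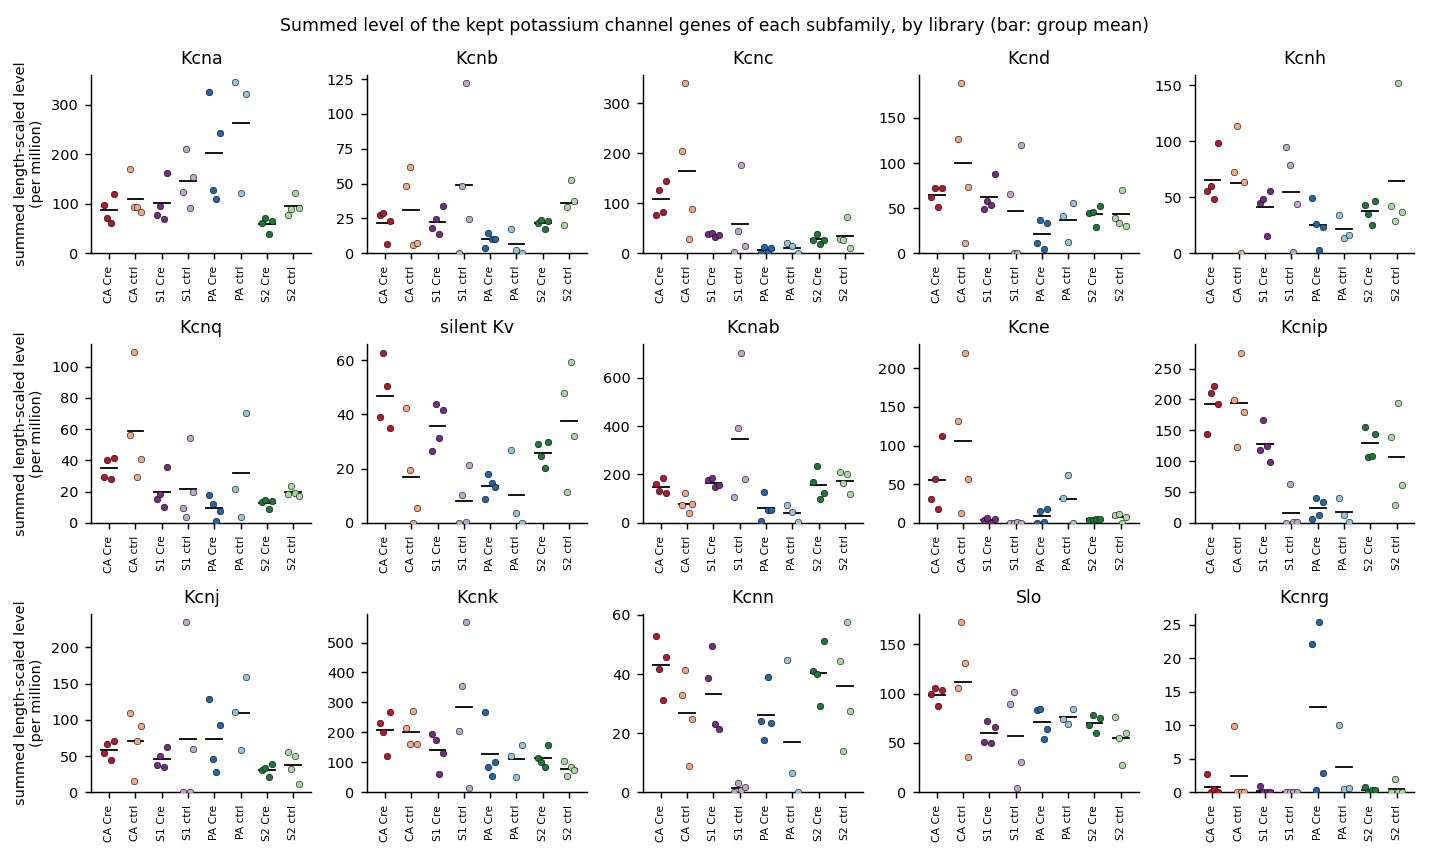
Summed length-scaled level (counts per kilobase of exon, scaled to a fixed sum; linear axis from 0) of the kept genes of each subfamily in every library; CA, central axon; PA, peripheral axon; S1 and S2, somas of batch 1 and 2; ctrl, Cre-negative. Points are libraries and bars group means. The Kcnip sum lies between 144 and 222 in central axon Cre libraries and between 6.21 and 40.4 in peripheral axon Cre libraries.

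By subfamily, the auxiliary Kcnip genes summed to a length-scaled level of 144 to 222 in central axon Cre libraries and 99.3 to 167 in batch 1 Cre somas, and to 6.21 to 40.4 in peripheral axon Cre libraries against 107 to 156 in batch 2 Cre somas. The Kcnc sum was 77.4 to 145 in central axons and 0.190 to 13.3 in peripheral axons, where batch 2 somas had 17.8 to 39.0. For Kcna, peripheral axons had the higher sum, 110 to 326, against 38.9 to 70.3 in batch 2 somas, 61.3 to 119 in central axons and 68.7 to 162 in batch 1 somas. In the Cre-negative libraries these sums overlapped those of the Cre libraries: Kcna was at 123 to 345 in peripheral axon controls, and central axon controls had 123 to 276 for Kcnip and 27.6 to 340.1 for Kcnc. The Kcnb, Kcnd and Kcnq sums in central axons overlapped those of the batch 1 somas.

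The first question of the design was which RNAs differ between central axon tissue and soma in the Cre libraries of batch 1. Kcnip1, Kcnd2 and Kcnk9 were much higher in central axon libraries, and Kcnd1, Kcna6 and Kcnab2 were lower. Of 65 potassium channel genes tested, 13 rose and 3 fell at an adjusted p under 0.05 (edgeR's quasi-likelihood test, Benjamini-Hochberg adjustment over the 14480 genes tested, called the edgeR adjusted p), while 13.7% of all genes tested passed in either direction, 8.63% of them higher and 5.11% lower. At an unadjusted p under 0.05 there were 21, beside 29.2% of all genes, and DESeq2 called 18, beside 21.7%. All axon libraries lay above all somas for 14 genes, beside 21% of all genes, and below them for 3, beside 4.17% (25.2% in either direction). The median log2 fold change of the 65 genes was -0.16, beside 0.05 for all genes. With scaling by library size alone the all-gene median moved to 0.50 and the split became 14 higher and 1 lower. Without central axon replicate 2, 3 or 4 the count of calls was 8, 10 or 6, and without soma replicate 2 it was 10. In bulk libraries such as these, fewer cells of a type and less RNA per cell cannot be told apart.

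Kcnip1, a calcium-binding subunit of Kcnd channels, stood at 65.4, 111, 101 and 117 CPM in central axon Cre replicates 1 to 4 and at 9.43, 12.95, 4.23 and 2.65 CPM in batch 1 Cre somas. Every axon library lay above every soma library. The log2 fold change was 3.29 (SE 0.47, edgeR adjusted p = 0.000986), and the call held in all 8 fits that left out 1 library. Its gene (ENSMUSG00000053519) spans chromosome 11, 33629339 to 33993152, on GRCm38.

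Kcnd2, one of the pores that Kcnip1 binds, was at 19.1, 55.0, 27.0 and 48.4 CPM in the axon libraries and at 0.207, 0.390, 0 and 0.662 CPM in the somas. The ranges were far apart, with a log2 fold change of 6.49 (SE 0.77, edgeR adjusted p = 0.000289). Kcnd1, the Kcnd pore with the highest length-scaled level in these somas, went the other way. It was at 88.5, 44.0, 48.5 and 48.9 CPM in the axons and 94.7, 109, 115 and 151 CPM in the somas. Replicate 1 of the axons came close to the lowest soma without reaching it, the log2 fold change was -1.43 (SE 0.34, edgeR adjusted p = 0.0158), and 3 of 8 fits without 1 library lost the call. Kcnd3 overlapped between the groups (17.4 to 40.7 against 21.03 to 54.4 CPM).

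Of the Kcna family and its partners, Kcna3 had 0 counts in all 4 somas and 2.74, 0.987, 11.4 and 17.5 CPM in the axons, at least 18.3-fold higher (mean over libraries against a floor of 3 counts per library; edgeR adjusted p = 0.00876). Kcnab3 stood at 5.85, 13.9, 17.5 and 32.6 CPM in the axons against 0 to 1.29 CPM in the somas (log2 fold change 4.12 with SE 0.98, edgeR adjusted p = 0.0162), a call lost in 1 of 8 fits without 1 library. The most abundant auxiliary gene, Kcnab2, was lower in the axons, at 308, 189, 268 and 129 CPM, than in the somas, at 327 to 399 CPM (log2 fold change -1.12 with SE 0.35, edgeR adjusted p = 0.0483). Kcna6 had 147, 63.7, 40.4 and 43.0 CPM in the axons and 143, 155, 154 and 279 CPM in the somas, so that axon replicate 1 overlapped the soma range (log2 fold change -1.67 with SE 0.46, edgeR adjusted p = 0.0298). Library-size scaling and 6 of 8 fits without 1 library ended the call of Kcnab2, and library-size scaling and 5 of 8 such fits that of Kcna6. Kcna6 shares 39.6% of its exon length with a gene on the opposite strand, and since the strand setting of the counting is not given in the sources used here, reads of the 2 cannot be told apart.

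All 4 tested Kcnc genes, voltage-gated pores, had positive log2 fold changes under TMM, RLE and library-size scaling. Kcnc1 was at 59.7, 100.2, 66.8 and 114 CPM in the axons against 5.09 to 29.8 CPM in the somas, with no overlap (log2 fold change 1.62 with SE 0.44, edgeR adjusted p = 0.0300). Its call was lost in 4 of 8 fits without 1 library. Kcnh4, of the ether-a-go-go family, was at 13.2, 5.92, 13.3 and 30.3 CPM against 0 to 2.18 CPM (log2 fold change 4.07 with SE 1.11, edgeR adjusted p = 0.0294), and Kcne1l, an auxiliary subunit, at 7.32 to 53.1 against 0 to 3.31 CPM (3.28, SE 0.91, edgeR adjusted p = 0.0307). Without 1 library, Kcnh4 lost its call in 3 of 8 fits and Kcne1l in 4 of 8.

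Of the two-pore family 3 of 9 tested genes rose and 0 fell, of the inward rectifiers 1 of 5 rose, and of the Kcnn genes 1 of 3 rose. The two-pore channel Kcnk9 had 21.9, 77.1, 20.8 and 65.1 CPM in the axons and 1.04, 4.38, 0.173 and 4.37 CPM in the somas, with no overlap (log2 fold change 3.81 with SE 0.77, edgeR adjusted p = 0.00801). Its relative Kcnk3 had 24.0, 81.7, 25.8 and 74.5 CPM against 6.01 to 16.9 CPM (1.95, SE 0.49, edgeR adjusted p = 0.0200). In 4 of 8 fits without 1 library Kcnk3 lost its call. Kcnk1, which ranked 13th by adjusted p and is named to complete the count, had 11.8 to 37.2 CPM against 1.35 to 7.01 CPM (2.19, SE 0.61, edgeR adjusted p = 0.0310).

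Kcnj16, an inward rectifier subunit that pairs with the glial channel Kcnj10, had 0 counts in all 4 somas and 4.53, 12.6, 21.7 and 14.7 CPM in the axons, at least 30.7-fold higher (edgeR adjusted p = 0.00165). Kcnn3, a small-conductance calcium-activated channel, had 5.47, 19.8, 7.87 and 14.7 CPM in the axons and a single count over all somas. Its ratio was 341, with an exact 95% interval of 61.02 to 13513 for counting error only (edgeR adjusted p = 0.00153). The soma values of both genes lay at or below the floor. The Kcnb and Kcnq genes, the silent subunits and the Slo family had no member that passed in this comparison.

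**Figure D2:**
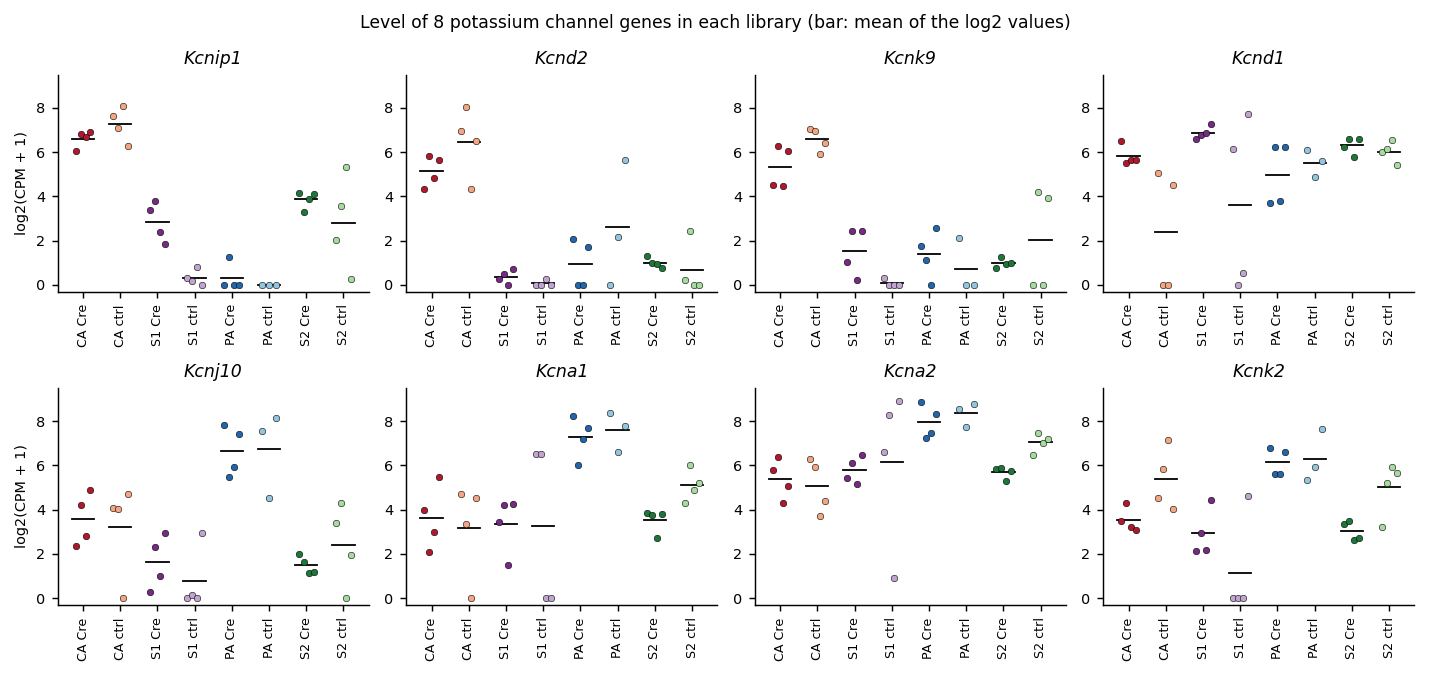
Level of 8 genes as log2(CPM + 1) in each library of the 8 groups (CA, central axon; PA, peripheral axon; S1 and S2, somas of batch 1 and 2; ctrl, Cre-negative); points are libraries and bars means of the log2 values. Kcnip1, Kcnd2 and Kcnk9 are high in CA Cre and CA ctrl libraries alike, and Kcnj10, Kcna1, Kcna2 and Kcnk2 in PA Cre and PA ctrl libraries alike.

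The Cre-negative libraries gave the background of these values. All 13 genes that rose in central axon libraries had counts in at least 1 central axon control, in all 13 the ranges of Cre and control libraries overlapped, and in 9 of the 13 the control mean was at or above the Cre mean. Among the 3 that fell the ranges overlapped in 2. In 1 of them, Kcna6, the control mean of 127 CPM exceeded the Cre mean of 73.6 CPM. Kcnip1 was at 199, 133, 270.2 and 75.5 CPM in central axon controls 1 to 4, above or within the Cre range given above. Kcnd2 was at 123, 259, 19.0 and 90.2 CPM in controls, so that the highest 3 controls exceeded every Cre library. Kcnk9 was at 131, 124, 58.7 and 85.2 CPM in controls and Kcnc1 at 208, 319.6, 6.17 and 119 CPM, both reaching past the Cre range.

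Marker lists of untagged spinal cells were summed in the same libraries. The inhibitory and motor neuron list (6 of 6 genes found) summed to 89.5 to 305 CPM in central axon Cre libraries and 134 to 609 CPM in controls, with no marker at 0 in all libraries. The astrocyte list (6 of 6) summed to 296 to 1347 CPM in Cre and 1329 to 2347 CPM in control libraries. In batch 1 Cre somas these lists summed to 1.36 to 6.99 CPM and 1.98 to 32.0 CPM. The spinal excitatory list (4 of 4) overlapped between compartments. It summed to 155 to 224 CPM in central axon Cre libraries, 90.6 to 314 CPM in their controls and 84.7 to 249 CPM in batch 1 Cre somas. Peripheral axon Cre libraries had 0.730 to 1.39 CPM of the first list, with Gad2, Slc6a5, Slc32a1 and Chat at 0 in all of them. The part of such cells in the higher values of central axon libraries was not tested.

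Central axon Cre libraries were compared with their controls directly, to ask which RNAs stood above the pulldown background. By edgeR 0 of 68 potassium channel genes tested passed, with 7 at an unadjusted p under 0.05 (4.82% of all genes), beside 0.0141% of all 14189 genes called, and DESeq2 called 3 of the 68, beside 1.52% of all genes. Nevertheless 12 of the 68 had all Cre libraries above all controls and 0 had them all below, while 6.82% and 1.29% of all genes did so, 8.11% in either direction. The 12 were Kcna4, Kcnd1, Kcnh6, Kcnip2, Kcnj11, Kcnk4, Kcnk12, Kcnk13, Kcnmb1, Kcnn1, Kcnt1 and Kcnv1, and they came from 9 subfamilies. The median log2 fold change of the 68 genes was 0.22, beside 0.11 for all genes. Fewer genes were detected in the controls. Genes with 10 or more counts numbered 7251 to 15153 per control and 15035 to 15952 per Cre library. Of the 78 potassium channel genes, 24 to 67 and 66 to 69 had that many. The part of this in the zeros and gaps was not tested, and bounds on folds cover counting error only.

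Kcnk13, a two-pore channel, had 6.04, 5.202, 3.71 and 7.47 CPM in central axon Cre libraries and 0 counts in all 4 controls, at least 17.8-fold higher (edgeR adjusted p = 0.227; DESeq2 adjusted p = 0.00136). Kcnmb1, a beta subunit of the large-conductance calcium-activated channel, had 11.6, 5.56, 7.23 and 4.40 CPM and likewise 0 in every control, at least 23.6-fold higher (edgeR adjusted p = 0.227; DESeq2 adjusted p = 0.000212). Its gene lies within the span of Kcnip1 on chromosome 11 (33963013 to 33973641, opposite strand) without sharing exon sequence, and its level in the controls was 0 where Kcnip1 was high. Kcnv1, a silent subunit, had 17.8, 12.2, 31.0 and 14.7 CPM against 0.808, 0, 0 and 0 CPM (log2 fold change 6.43 with SE 2.00; edgeR adjusted p = 0.502; DESeq2 adjusted p = 0.00118). In batch 1 Cre somas Kcnk13 stood at 8.91 to 13.1 CPM, Kcnmb1 at 5.03 to 17.8 CPM and Kcnv1 at 8.63 to 23.4 CPM.

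The 2 genes that mark the set behaved differently against the controls. Kcnd1 was at 44.0 to 88.5 CPM in central axon Cre libraries and at 31.8, 0, 0 and 22.1 CPM in controls, a gap between groups with a log2 fold change of 2.13 (SE 1.64, edgeR adjusted p = 1.00). Kcnip1 overlapped, with -0.75 (SE 0.45, edgeR adjusted p = 1.00). Its relative Kcnip2 did not, at 62.8, 86.2, 108 and 64.6 CPM in Cre libraries and 35.8, 13.05, 46.9 and 54.6 CPM in controls. Kcnk18, the two-pore channel known from nociceptors and migraine, had 53.7, 12.3, 2.35 and 18.1 CPM in Cre libraries and 0, 0, 0 and 6.04 CPM in controls, overlapping through control 4 and Cre replicate 3. Kcnk12 had 91.1, 29.3, 24.8 and 52.3 CPM in Cre libraries and 10.6, 0, 0 and 0.102 CPM in controls (4.25, SE 1.89, edgeR adjusted p = 1.00).

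**Figure D3:**
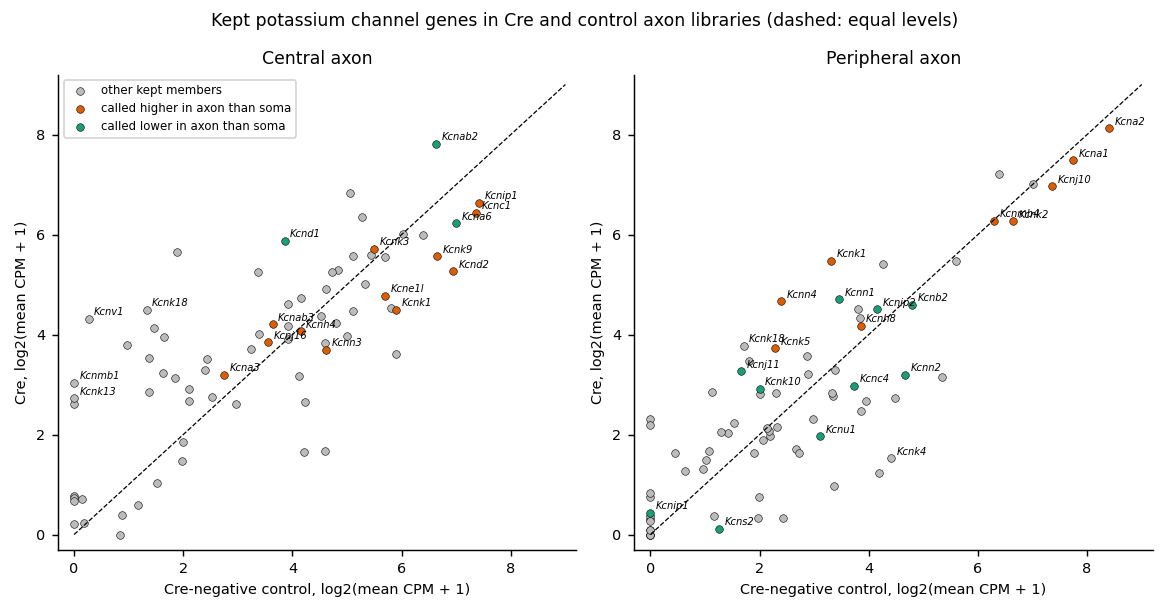
Mean level of the potassium channel genes reported here in Cre against Cre-negative axon libraries, as log2(mean CPM + 1), for central (4 against 4 libraries) and peripheral axons (4 against 3); orange and green points passed the axon-against-soma test in Cre libraries. Kcnip1, Kcnd2 and Kcnk9 lie under the line of equal levels in central axons, while Kcnk13, Kcnmb1 and Kcnv1 lie at 0 or near 0 in central controls; Kcnk1, Kcnn4 and Kcnk5 lie above the line in peripheral axons.

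In peripheral axons against the somas of batch 2, Kcnj10, Kcna1, Kcnk2 and Kcna2 rose, and Kcnip1, Kcnip2, Kcnn1 and Kcnn2 were among the genes that fell. Of 66 potassium channel genes tested, 9 rose and 10 fell, beside 31.2% of all 15467 genes called (18.7% higher, 12.5% lower). Under RLE scaling the split was 8 and 12 and under library-size scaling 9 and 6. Fitted values were negative for 50 of the 66, their median log2 fold change being -1.34 beside -0.03 for all genes. All peripheral axon libraries lay below all somas for 24 of the 66 genes, beside 16% of all genes, and above them for 8, beside 20.7% (36.7% in either direction). At an unadjusted p under 0.05 there were 30, beside 42.9%, and DESeq2 called 25, beside 39.6%. Without axon replicate 2, the most deeply sequenced, 10 rose and 22 fell.

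Kcnj10, the inward rectifier of satellite glia and Schwann cells, was at 226, 42.8, 60.3 and 168 CPM in peripheral axon Cre replicates 1 to 4 and at 2.93, 2.12, 1.17 and 1.26 CPM in the somas. The lowest axon library was far above the highest soma (log2 fold change 5.81 with SE 0.57, edgeR adjusted p = 4.72e-05). Its controls had 185, 22.2 and 281 CPM, a range that covers that of the Cre libraries.

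Kcna1 and Kcna2, pores of the channels beside the nodes of Ranvier, followed. Kcna1 had 299, 63.2, 143 and 208 CPM in the axons and 13.4, 12.3, 5.60 and 13.1 CPM in the somas (log2 fold change 3.78 with SE 0.44, edgeR adjusted p = 0.000130). Kcna2 had 469, 149, 178 and 319 CPM against 56.5, 58.2, 38.6 and 52.1 CPM (2.20, SE 0.33, edgeR adjusted p = 0.000562). Peripheral controls held 328, 95.9 and 219 CPM of Kcna1 and 376, 209 and 431 CPM of Kcna2, within or above the Cre ranges.

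Kcnk2, a mechanically gated two-pore channel, had 110.2, 47.9, 47.6 and 97.3 CPM in the axons against 5.19 to 10.2 CPM in the somas (log2 fold change 3.11 with SE 0.37, edgeR adjusted p = 0.000144), with 39.6, 59.3 and 198 CPM in controls. A gene on the opposite strand covers 12.2% of its exon length. Kcnk5, an acid-sensitive two-pore channel, had 12.6, 3.85, 15.9 and 16.5 CPM against 0.255 to 1.498 CPM (3.83, SE 0.78, edgeR adjusted p = 0.00385). Kcnn4, the intermediate-conductance channel of blood and immune cells, had 7.54, 8.43, 68.8 and 12.7 CPM against 0.764 to 2.699 CPM (3.96, SE 0.88, edgeR adjusted p = 0.00592), and Kcnk1 142, 11.4, 10.01 and 10.7 CPM against 1.56 to 2.83 CPM (3.88, SE 0.88, edgeR adjusted p = 0.00644). For both genes a single axon library carried most of the mean, yet all 4 axon libraries exceeded the somas.

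The last 2 genes that rose did so by less or with less margin. Kcnh8, of the ether-a-go-go family, had 34.0, 10.2, 2.68 and 21.3 CPM against 2.04 to 2.68 CPM, so that replicate 3 touched the soma range (log2 fold change 2.54 with SE 0.69, edgeR adjusted p = 0.0160), and 3 of 8 fits without 1 library lost the call. Kcnmb4, the beta subunit of neuronal large-conductance channels, had 66.9 to 96.3 CPM against 26.4 to 53.4 CPM (0.93, SE 0.29, edgeR adjusted p = 0.0298), a call that RLE scaling and the fit without a low-count filter ended, as did 6 of 8 fits without 1 library. Antisense genes cover 31.5% of its exon length.

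In all 9 genes that rose, Cre and control ranges overlapped in peripheral axons, and in 5 of the 9 the control mean was at or above the Cre mean. Schwann cell markers (6 of 6 found) summed to 6897 to 17625 CPM in peripheral axon Cre libraries and 5744 to 9783 CPM in controls, against 318 to 589 CPM in batch 2 Cre somas. Fibroblast markers summed to 2757 to 5020 CPM in Cre and 3757 to 14818 CPM in control libraries. Their part in the higher values was not tested.

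Among the genes that fell, Kcnip1 had 0, 1.39, 0 and 0 CPM in peripheral axons and 16.98, 8.87, 13.8 and 16.3 CPM in the somas. Only axon replicate 2 had any counts, and all 3 controls had 0 (log2 fold change -5.03 with SE 1.09, edgeR adjusted p = 0.00532). Kcnip2 had 7.54, 32.6, 8.54 and 38.0 CPM against 97.1 to 137 CPM (-2.61, SE 0.50, edgeR adjusted p = 0.00254). All 4 Kcnip genes had every axon library below every soma, and 2 of them passed the test. Such a gap was not limited to this subfamily. It was found for 24 of the 66 potassium channel genes tested, among them 5 of 11 Kcnk genes and 4 of 7 silent subunits. Of all genes, 16% lay below all somas and 12.5% were called lower. Every axon library was sequenced less deeply than every soma, and the part of depth in these gaps was not tested.

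Of the calcium-activated channels, Kcnn2 had 3.89, 11.1, 7.81 and 9.88 CPM against 24.2 to 45.8 CPM (log2 fold change -2.30 with SE 0.43, edgeR adjusted p = 0.00238), and Kcnn1 20.4 to 30.3 CPM against 37.3 to 66.0 CPM (-1.29, SE 0.29, edgeR adjusted p = 0.00667). These calls and those of Kcnip1 and Kcnip2 held in all 8 fits without 1 library. The remaining 6 that fell, with log2 fold changes from -3.78 to -1.32, were Kcns2, a silent subunit (edgeR adjusted p = 0.0198), Kcnb2, a delayed rectifier (0.0317), Kcnj11 (0.0359), Kcnu1, known from sperm (0.0387), Kcnc4 (0.0438) and Kcnk10 (0.0491). Each of these 6 lost its call in 1 to 6 of 8 fits without 1 library, and library-size scaling ended those of Kcnb2, Kcnj11, Kcnc4 and Kcnk10. Kcnd1 had 11.9, 74.6, 12.7 and 73.0 CPM against 54.0 to 96.2 CPM and did not pass (-1.07, SE 0.56, edgeR adjusted p = 0.172). In all 10 genes that fell, Cre and control ranges overlapped in peripheral axons. In 5 of the 10 the control mean was at or above the Cre mean, as for Kcnn2 (24.3 ± 36.8 against 8.17 ± 3.16 CPM, mean ± SD).

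Against their own controls, 0 of 55 potassium channel genes tested passed in peripheral axons by edgeR, with 1 at an unadjusted p under 0.05 and 0 by DESeq2, beside 0% of 13970 genes called by edgeR, 3.68% at that unadjusted p and 0.193% called by DESeq2. A single gene did not overlap: Kcnk4, a two-pore channel, had 0.730, 3.39, 3.42 and 0 CPM in Cre libraries and 12.98, 21.3 and 26.3 CPM in controls, while 6.44% of all genes did not overlap (3.58% higher, 2.86% lower). Its log2 fold change was -3.24 (SE 1.54, edgeR adjusted p = 1.00), and the gene shares 13.1% of its exon length with Catsperz on the same strand. Kcnk13 had 0 in all controls and 3.89, 3.85, 0 and 8.15 CPM in Cre libraries, so that the groups overlapped at 0. Its Cre mean was at least 7.11-fold higher than a floor of 3 counts per control (edgeR adjusted p = 1.00). Here too fewer potassium channel genes had 10 or more counts in controls, 15 to 54 per library against 32 to 67 in Cre libraries. Kcnk18 had 0, 33.7, 0 and 16.99 CPM in Cre libraries and 6.82, 0 and 0 CPM in controls. Kcnd1 overlapped, with a log2 fold change of -0.04 (SE 0.77).

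**Figure D4:**
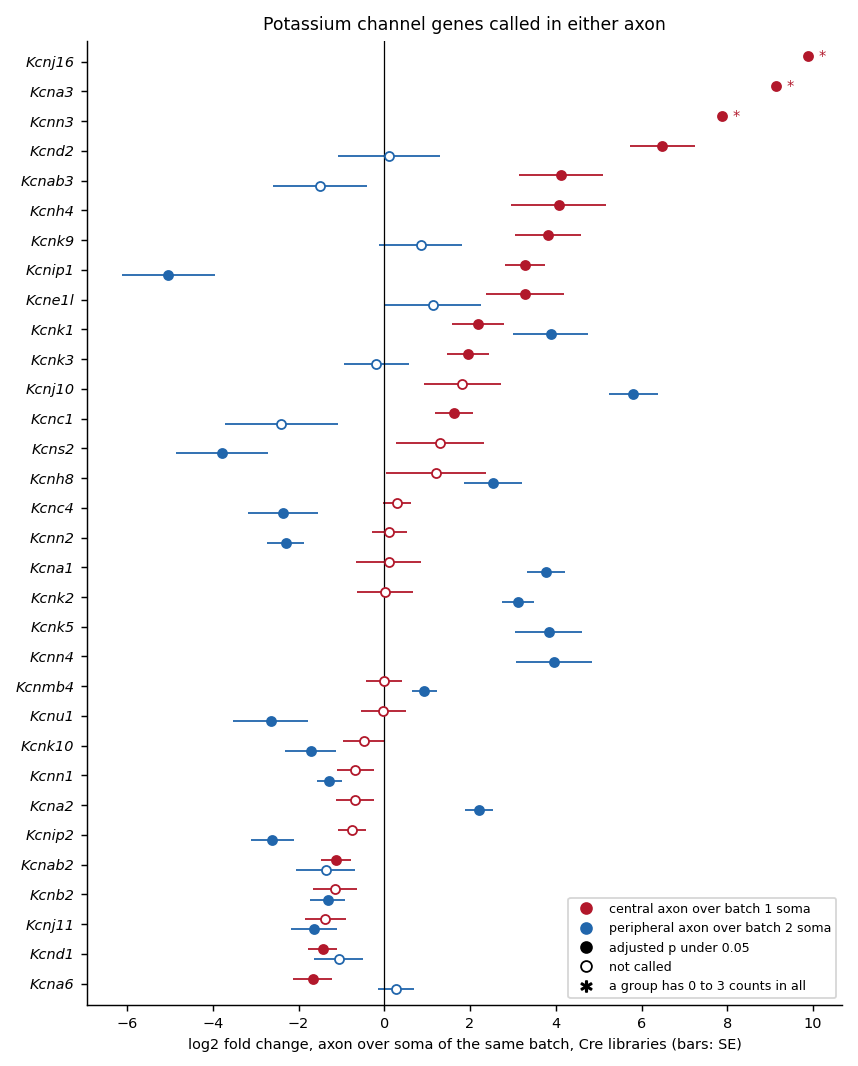
Log2 fold change of axon over soma in Cre libraries (bars, SE) for genes reported here that passed in either axon, central axons in red and peripheral axons in blue; filled points have an edgeR adjusted p under 0.05, open points do not, and asterisks mark values set by a group with 0 to 3 counts. Kcnip1 stands at 3.29 for central and -5.03 for peripheral axons, and Kcnj10 at 1.82 and 5.81.

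Batch and axon type cannot be told apart directly, so central and peripheral axons were compared each relative to the Cre somas of its own batch. A batch effect that differs between axon and soma libraries stays in this contrast and cannot be told apart from axon type. The values are differences of log2 fold changes, central minus peripheral. Of 73 potassium channel genes tested, 10 were higher and 6 lower in central axons, beside 13.1% of all 16725 genes called (7.2% higher, 5.88% lower), with 26 at an unadjusted p under 0.05 (28.6% of all genes) and 22 called by DESeq2 (19.7%), and the edgeR split was the same under RLE and library-size scaling. The median difference was 1.49, beside 0.26 for all genes.

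Kcnip1 differed by 8.31 (SE 1.03, edgeR adjusted p = 0.000169), Kcnd2 by 6.54 (SE 1.48, 0.00767), Kcnab3 by 5.82 (SE 1.61, 0.0222), Kcnn2 by 2.57 (SE 0.62, 0.0111) and Kcnip2 by 2.03 (SE 0.60, 0.0317). Of these, Kcnip2 lost the call in 8 of 16 fits without 1 library and Kcnab3 in 1. Kcnc4 (2.84), Kcns2 (5.30) and Kcnc1 (4.10) also passed, with edgeR adjusted p of 0.0346, 0.0367 and 0.0443, and lost the call in 12, 11 and 14 of those 16 fits. The value of Kcns2 rests on a peripheral axon mean of 0.083 CPM, with counts in replicate 2 alone. Kcnh4 had 0 counts in all peripheral axon Cre libraries and Kcna3 in all batch 1 somas, so that their differences have no fitted size (edgeR adjusted p = 0.00513 and 0.0201). All tested Kcnip (4 of 4), Kcnc (4 of 4) and Kcnab (3 of 3) genes had positive differences under each scaling. Positive differences were common in the whole set, at 54 of 73 genes under TMM scaling, with Kcnb (2 of 2) and Kcne (2 of 2) also all positive.

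Lower in central axons were Kcna2 (-2.74, SE 0.59, edgeR adjusted p = 0.00536), Kcnk2 (-2.93, SE 0.74, 0.0140), Kcnj10 (-3.81, SE 1.02, 0.0190), Kcna1 (-3.51, SE 0.94, 0.0191) and Kcnn4 (-7.20, SE 1.94, 0.0198). Kcnn4 did not pass the low-count filter in central axon against soma, so its value rests on low counts in batch 1. Kcnk5 had 0 counts in all central axon Cre libraries and gets no size (edgeR adjusted p = 0.00448). The Kcna family thus had 2 genes lower and 1 higher in central axons, and the Kcnk family 2 lower and 0 higher. Kcnd1 did not differ beyond its error (-0.18, SE 0.68, edgeR adjusted p = 0.900). Controls, also of different batches, do not enter this contrast. Mean levels in central and peripheral controls were 42.1 and 339 CPM for Kcna2, 14.2 and 214 for Kcna1, and 14.1 and 163 for Kcnj10. They were 58.2 and 98.9 CPM for Kcnk2, 170 and 0 for Kcnip1, 123 and 17.3 for Kcnd2, and 25.5 and 24.3 for Kcnn2. The part of this background in the differences was not tested.

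Somas of Cre mice were compared with soma controls in each batch. In batch 1, 3 of 50 genes tested (6%) rose and 0 fell, beside 4.42% of all 11667 genes called (4.37% higher, 0.0514% lower). All 3 were silent subunits with 0 counts in every control, so they entered the test through the Cre somas alone. Kcnk18, with means of 43.1 CPM in Cre somas and 0.0270 CPM in controls, did not pass (edgeR adjusted p = 0.266). The shared subfamily of the 3 is therefore a description and no result. At an unadjusted p under 0.05 there were 11, beside 15% of all genes, and DESeq2 called 13, beside 16.3%. Kcng1 had 8.60, 9.93, 3.45 and 5.69 CPM, Kcns1 1.76, 10.5, 6.30 and 13.5 CPM and Kcng2 5.08, 6.82, 20.9 and 6.48 CPM in Cre somas, and each had 0 counts in all 4 controls (replicates 1, a, 3 and b). They were at least 2.57-, 2.91- and 3.84-fold higher, bounds computed after the composition factors given above (edgeR adjusted p = 0.0162, 0.0224 and 0.0310). Without control 3, 24 genes passed, without any one of the other 3 controls 0 did, and without Cre replicate 1 or 3 the count was 1 or 5. In this comparison 22 of the 50 genes had all Cre somas above all controls, and 0 had them below, beside 28% and 0.429% of all genes (28.4% in either direction). Potassium channel genes with 10 or more counts numbered 52 to 62 per Cre soma and 12 to 23 per control.

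In batch 2 somas 0 of 67 genes passed by edgeR, beside 0% of 15280 genes called, with 13 at an unadjusted p under 0.05 (16.4% of all genes) and 7 called by DESeq2, where 7.61% of all genes were. The groups did not overlap for 2 higher genes (4.29% of all genes) and 5 lower genes (7.58%), 11.9% of all genes in either direction. Kcnk18 had 65.2, 79.1, 68.8 and 129.6 CPM in Cre somas and 38.8, 14.6, 2.50 and 11.1 CPM in controls, with no overlap (log2 fold change 2.56 with SE 0.66, edgeR adjusted p = 0.0913; DESeq2 adjusted p = 0.00358). Kcnq3, a subunit of the M-current, had 4.37, 1.35, 2.24 and 2.17 CPM against 4.92, 37.7, 16.7 and 62.7 CPM (-3.35, SE 0.83, edgeR adjusted p = 0.0842; DESeq2 adjusted p = 0.000276). Kcna2 had 38.6 to 58.2 CPM against 87.7, 174, 129 and 146 CPM (-1.12, SE 0.29, edgeR adjusted p = 0.0940; DESeq2 adjusted p = 0.00455). Satellite glia markers (4 of 4 found, Kcnj10 among them) summed to 165 to 301 CPM in these Cre somas and 468 to 2315 CPM in controls. Large-diameter sensory markers summed to 238 to 340 CPM in Cre somas and 370 to 2098 CPM in controls, and fibroblast markers to 131 to 273 and 659 to 2156 CPM. The astrocyte, oligodendrocyte and microglia lists were also lower in Cre somas without overlap, and the remaining lists overlapped. The part of such cells was not tested. Without control 5 edgeR called 9 genes and without control 7 it called 2. Kcnd1 (0.55, SE 0.32) and Kcnip1 (0.40, SE 1.01) overlapped between the groups.

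Whether the axon-soma difference in Cre libraries exceeded that in controls was tested as a difference of differences. It passed for 0 of 70 genes by edgeR in central axons, with 22 at an unadjusted p under 0.05 (31.4% of the 70, beside 20.4% of all 15355 genes) and 2 by DESeq2, beside 0% of all genes called by edgeR and 3.69% by DESeq2. The smallest unadjusted values belonged to Kcnk9 (-6.07, SE 2.04), Kcnk1 (-6.40, SE 2.15) and Kcnk12 (6.75, SE 2.28), with edgeR adjusted p of 0.120, 0.121 and 0.122. Kcnip1 had -4.73 (SE 1.73, edgeR adjusted p = 0.139) and Kcnd1 1.27 (SE 2.36, edgeR adjusted p = 0.848). Fitted values (Cre minus control) were negative for 43 of the 70 genes, with a median of -1.59 beside -0.40 for all genes. RLE scaling moved the all-gene median of this comparison from -0.40 to 0.26. Peripheral axons gave 0 of 68 genes by edgeR and by DESeq2, with 3 at an unadjusted p under 0.05, beside 0.00636% of all 15717 genes called by edgeR, 2.24% by DESeq2 and 9.74% at that unadjusted p. Those 3 (Kcnk13, Kcnmb1 and Kcnmb2) had 0 counts in every peripheral control.

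Genes outside the Kcn symbols that work with these channels were taken as a list of 38 partners. In central axons against soma 2 of 33 tested rose and 1 fell (9.09%), a share below the 13.7% of all genes called: Dlg2, a scaffold of Kcna channels, was at 27.8 ± 15.8 CPM against 2.64 ± 1.32 CPM (mean ± SD, n = 4 each; log2 fold change 2.95 with SE 0.56, edgeR adjusted p = 0.00602) and Sptbn4, the spectrin of axon initial segments and nodes, at 70.2 ± 44.4 against 12.9 ± 3.32 CPM (1.98, SE 0.45, edgeR adjusted p = 0.0131), while Vapb, a partner of Kcnb channels, fell (-1.32, SE 0.28, edgeR adjusted p = 0.0106). In peripheral axons 6 of 35 rose and 4 fell (28.6%), beside 31.2% of all genes called. The largest calls were Lgi4, secreted by Schwann cells, at 114 ± 59.5 against 2.48 ± 1.36 CPM (5.28, SE 0.48, edgeR adjusted p = 3.04e-05), Lgi1 at 57.3 ± 32.9 against 2.27 ± 0.266 CPM (4.48, SE 0.51, edgeR adjusted p = 0.000107) and Rest, a repressor of neuronal genes, at 69.9 ± 20.1 against 3.00 ± 2.21 CPM (4.40, SE 0.51, edgeR adjusted p = 0.000114). Calm2 (-1.96), a calmodulin gene that serves Kcnq and Kcnn channels, fell, as did Nedd4l (-1.67), a ubiquitin ligase, and Vapa. Between the axons, Sptbn4 was higher and Lgi1 and Lgi4 lower in central axons (8.57% of 35, beside 13.1% of all genes), and in the other 6 comparisons 0 partners passed by edgeR.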

How the data were processed

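Raw gene counts for 31 libraries were deposited by the authors in 2 tables, one for each batch. Per the submitters' processing notes, reads were aligned with STAR 2.7.2b to mm10; the counting program and its strand setting are not given in the sources used here. All columns were matched to samples, but 2 batch 1 soma controls share a column name and are called replicates a and b. The members and lists were chosen with earlier results of these data known. Counts were tested with edgeR 4.0.16 (R 4.3.3; quasi-likelihood test, filterByExpr with 10 counts, TMM scaling, Benjamini-Hochberg adjustment over all genes tested, calls at 0.05), fitting only the groups compared. DESeq2 1.42.0, RLE and library-size scaling, no filter, a replicate block and leaving out each library were alternatives. Per-library values are CPM of the library total (3.601 to 19.64 M counts). Named genes are Kcnip1, Kcnd1 and, per direction, up to 12 called genes by adjusted p, or the 3 smallest p-values where none passed; other genes named for lack of overlap or to complete a count were chosen after their values were seen. On simulated counts in which 200 genes differed by a log2 value of 3 (dispersion 0.35), the test recovered 87.5% for central axon against soma (14480 genes), 82.0% for peripheral axon against soma (15467 genes) and 22.0% for central against peripheral axon (16725 genes). Some genes that enter the counts are not reported here by name or drawn singly.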

Additional observations from a re-analysis of the deposited data

Results flagged for a closer look

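A single library stood far from the other 3 of its group for 12 of 89 groups of 4 libraries examined (13.5%). Chance gives about 1 in 20 for normally distributed values, which CPM need not be. Where the others were at 0, as for Kcnv1, Kcnn3, Kcnip1 and Kcns2, the rule flags any count. The share is therefore no measure against chance. Among central axon libraries the flagged values were Kcnd1 in Cre replicate 1 (88.5 CPM, others 44.0 to 48.9) and Kcnv1 in control 1 (0.808 CPM, others 0). In batch 1 Cre somas they were Kcng2 in replicate 3 (20.9 CPM, others 5.08 to 6.82), Kcna6 in replicate 4 (279 CPM, others 143 to 155), Kcnh4 in replicate 1 (2.18 CPM, others 0 to 0.292) and Kcnn3 in replicate 4 (0.132 CPM, others 0). In peripheral axon Cre libraries they were Kcnip1 in replicate 2 (1.39 CPM, others 0), Kcns2 in replicate 2 (0.332 CPM, others 0), Kcnk1 in replicate 1 (142 CPM, others 10.01 to 11.4) and Kcnn4 in replicate 3 (68.8 CPM, others 7.54 to 12.7). In batch 2 Cre somas they were Kcna1 in replicate 7 (5.60 CPM, others 12.3 to 13.4) and Kcnmb4 in replicate 6 (53.4 CPM, others 26.4 to 31.0).

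In Cre libraries, without regard to the controls, the axon-soma difference itself differed between central and peripheral axons for 16 genes (edgeR's quasi-likelihood test of the difference). On the log2 scale, central minus peripheral, it was 8.31 for Kcnip1, 6.54 for Kcnd2, 5.82 for Kcnab3, 5.30 for Kcns2, 4.10 for Kcnc1, 2.84 for Kcnc4, 2.57 for Kcnn2 and 2.03 for Kcnip2. It was -7.20 for Kcnn4, -3.81 for Kcnj10, -3.51 for Kcna1, -2.93 for Kcnk2 and -2.74 for Kcna2. The fitted values of Kcnh4 (10.23), Kcna3 (9.62) and Kcnk5 (-9.52) each rest on a group with 0 counts, depend on the prior count and are no measure of size. Those of Kcnn4 and Kcns2 rest on low counts.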

How the results depend on the processing

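Named fold changes kept direction and side of the threshold in 340 of their recomputations under other scalings, filters, tools or the replicate block and in 704 of those without 1 library, while 13 and 132 were no longer past the threshold, 10 and 8 newly passed and 2 and 8 changed sign. DESeq2 moved the count of calls to 3 for central axon Cre against control, 13 for batch 1 somas, 7 for batch 2 somas and 2 for the central Cre-minus-control difference. Library-size scaling gave 18 in batch 1 somas and 1 in batch 2 somas, and no low-count filter gave 7 in batch 1 somas and 2 in the central difference. Without 1 library the counts ran from 0 to 24 in batch 1 somas, 0 to 9 in batch 2 somas, 6 to 21 for central axon against soma, 13 to 32 for peripheral axon against soma, 12 to 21 for central against peripheral axon, 0 to 5 for the central and 0 to 1 for the peripheral Cre-minus-control difference, and stayed at 0 for both axon Cre-control comparisons. Without batch 1 soma control 3 the central difference gave 5, and without peripheral control 1 the peripheral one gave 1. The causes were not tested.

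With the replicate number as a block, batch 1 somas gave 0 calls and central axon against soma 17. Not all same-numbered libraries deviated together. For central axon and soma the lowest correlation was -0.0487 and the mean 0.121, beside a mean of -0.0402 between other numbers. There 2 libraries correlated best with their own number. Whether a shared number means a shared mouse cannot be decided from so few correlations. No paired analysis was possible for peripheral axon against soma because the libraries share no numbers. Signs changed for Kcnd1 in peripheral Cre against control (0.039 with no filter; -0.50 to 0.28 without 1 library, positive at 0.27 and 0.25 without Cre replicate 1 or 3 and 0.28 without control 1), in the central Cre-minus-control difference (-0.13 with the replicate block; -0.049 to 2.21 without 1 library, negative without soma control b) and in central against peripheral axon (-0.57 to 0.28 without 1 library, positive at 0.28 and 0.13 without peripheral Cre replicate 2 or 4). They changed for Kcnip1 in batch 2 somas (-0.000240 to 1.87 without 1 library, negative without control 8) and in the peripheral difference (-0.47 to 4.90 without 1 library, negative without peripheral Cre replicate 2). Scaled by the longest transcript, the central axon level of Kcnc4 was 40.2 and the peripheral axon level of Kcnmb4 88.8. At the depths here, 3 counts equal 0.153 to 0.833 CPM, and lower levels were not detectable.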
